A study of Rattus norvegicus with 244 samples.

Results

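The comparison described here sets the raphe of spinal cord injured rats at 3 months against the same region at 7, 14 and 28 d. Its members are samples, chosen by their titles alone: 4 samples labelled as moderately injured raphe at 3 months, and 12 labelled as moderately injured raphe at 7 d, 14 d or 28 d (4 at each time), together 16 of the 84 samples of the series. All 16 carried the injury, so the comparison is between late and earlier times after it and not between injury and no injury. Time since the operation cannot be told apart from the rats' longer life, and the labels give no strain, sex, age or injury device. No label states whether each sample came from its own animal, so p-values measure the spread between these samples, which may be in part technical. Total RNA was measured on 3 types of array, called A, B and C, that carry different probe sets, with all 16 samples on each (48 arrays). For reference, raphe sham samples (laminectomy without injury, 2 at each time), 4 naive raphe samples (3 on type C) and 16 injured somatomotor cortex samples of the same 4 times were used. The source of injured samples is labelled raphe and that of sham and naive samples raphe magno, a difference the labels do not explain. Of the 2 sham samples at 3 months, replicate 1 was left out because an earlier analysis of these data placed its expression with the cortex, so sham at 3 months is 1 sample.

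The raphe nuclei lie along the midline of the brainstem. The caudal group, which includes the raphe magnus, sends serotonin, GABA and peptide fibres down the spinal cord, where they set the gain of motor and pain circuits. Injury of the cord can interrupt such axons far from their cell bodies. Raphe tissue holds those cell bodies together with intact neurons, oligodendrocytes, astrocytes, microglia and vessels. In such bulk tissue, fewer cells of a type and less RNA per cell cannot be told apart.

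The regional identity of the 16 samples was checked with marker genes. Of 15 measured forebrain genes, 13 were lower in every one of the 16 raphe samples than in every one of the 16 injured cortex samples. Of 15 brainstem neuron genes, 8 were higher in every raphe sample, and the same held for 6 of 17 serotonin and monoamine genes. The serotonin transporter gene Slc6a4 read 887 to 1425 at 3 months and 1039 to 1689 at the earlier times. Tph2, the brain enzyme of serotonin synthesis, was not among the genes tested. Choroid plexus and ependyma genes, which a dissection near the ventricle can carry, varied widely. Their summed intensity ran from 7044 to 19823 at 3 months and from 7408 to 77004 earlier, and 0 of 8 passed the test (median difference -0.59 on the log2 scale).

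The arrays at 3 months differed from the earlier ones at the dim end of the signal. The 5th percentile of an array's intensities was 10.7 to 14.9 on type A at 3 months and 7.85 to 9.87 at the earlier times. On type B it was 17.8 to 22.2 against 12.5 to 17.6, and on type C 19.2 to 22.2 against 14.1 to 16.9. The groups did not overlap on any type (exact permutation test, two-sided, 4 against 12 samples, p = 0.0011, adjusted p = 0.0044 over 12 such tests). The bacterial spike control probe sets were higher at 3 months by 0.67 to 0.74 on the log2 scale over the 3 types, with overlapping groups (exact permutation test, adjusted p = 0.0297 on type B and 0.0637 on types A and C). The ratios of 3' over 5' signal of the actin and Gapdh controls, a measure of RNA integrity, had adjusted p of 0.0772 or more (same exact permutation test). In the 6 earlier sham samples the 5th percentile on type A was 9.13 to 13.6 and in the naive samples 9.37 to 13.1. On type B these ranges were 12.7 to 17.6 and 14.8 to 19.9, with the sham range below all late injured arrays. On type C they were 13.6 to 16.8 and 15.7 to 17.3, both below all late injured arrays. The single late sham sample read 12.5 on type A, 18.2 on type B and 16.1 on type C. It lay within the range of the earlier sham samples on types A and C and above it on type B. Because the array floor and the time point separate the same injured raphe samples, the 2 cannot be told apart in the late change of injured raphe.

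**Figure D1:**
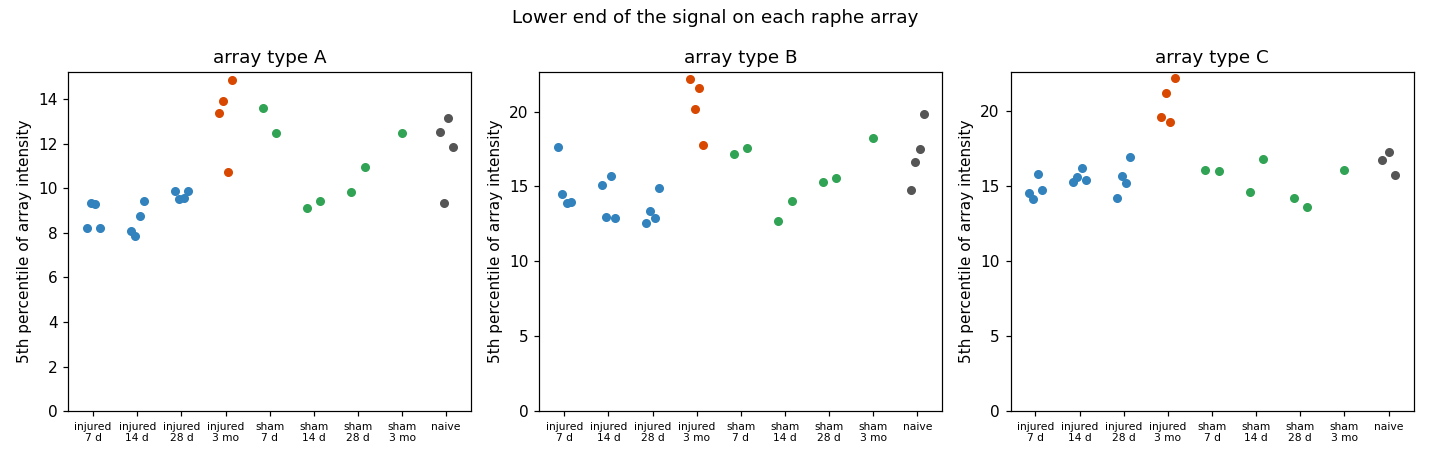
The 5th percentile of the intensities of each raphe array (vertical axis, intensity units as deposited), 1 point per array and 1 panel per array type, by group. On every type the 4 injured arrays at 3 months (orange) lie above the 12 injured arrays at 7, 14 and 28 d (blue), on type A at 10.7 to 14.9 against 7.85 to 9.87.

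A broad change in both directions separated the injured raphe at 3 months from the earlier times. Of 17104 probe sets tested with limma on log2(intensity + 32), 1222 were higher and 1412 lower at 3 months at a Benjamini-Hochberg adjusted p below 0.05, 15.4% of those tested. With 1 probe set per gene, 529 of 8715 genes were higher (6.07%) and 690 lower (7.92%). The median rise among called genes was 0.51 and the median fall -0.52 on the log2 scale, and 22 genes rose and 71 fell by more than 1. In 380 genes (4.36% of those tested) the 4 samples at 3 months lay entirely above or below the 12 earlier samples. With the log2 5th percentile of each array as a covariate, a setting added after seeing the data, 2 probe sets passed (limma). At an unadjusted p below 0.05 there were 2050. Of the 15 largest rises and 15 largest falls named below 0 passed under it (limma), 4 and 8 at an unadjusted p below 0.05. Their differences ran from 0.57 to 2.15 among the rises and from -2.34 to 0.085 among the falls. With the spike controls as a covariate, also added later, 977 passed. With quantile normalization, a planned setting that gives the arrays of a type the same distribution, 2843 passed (1208 higher, 1635 lower). Without the second late sample 1692 passed, and without the 7 d samples 1510. In a fit of all raphe groups of the series 550 passed, and 2266 without 2 samples of that fit whose labels an earlier analysis doubted.

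Between the earlier times themselves no probe set passed. The limma F test for a change among 7 d, 14 d and 28 d called 0 of 17104 probe sets (0%), with 1042 at an unadjusted p below 0.05. The 3-month samples set against 28 d alone gave 629 higher and 705 lower (7.8%), against 14 d 440 and 449, and against 7 d 698 and 872. Without the second or the third 28 d sample, the contrast with 28 d gave 594 or 585. These 3 contrasts share the samples at 3 months.

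**Figure D2:**
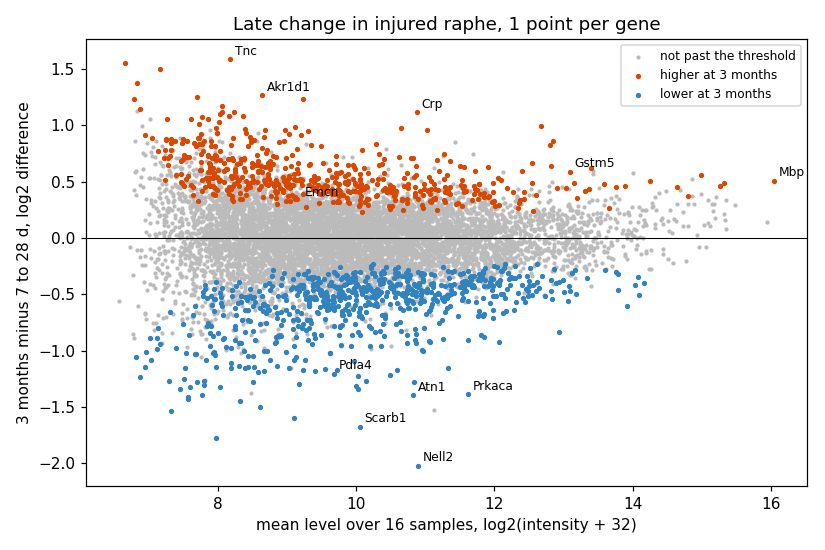
Late change of every gene tested (vertical axis, mean of the 4 samples at 3 months minus the mean of the 7 d, 14 d and 28 d group means, log2 scale) against its mean level over the 16 samples (horizontal axis, log2(intensity + 32)). Orange points are the 529 genes higher and blue points the 690 genes lower at an adjusted p below 0.05. Scarb1 (-1.67), Prkaca (-1.39) and Atn1 (-1.39) are bright genes that fell, and Tnc (1.59) and Akr1d1 (1.26) rose.

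The balance of directions followed the signal level. When probe sets were cut into 5 equal bins by signal, the dimmest bin held 368 higher and 196 lower ones, with a median difference of 0.10 over the bin. In the brightest bin 188 were higher and 339 lower, with a median difference of -0.01. The rise of the array floor described above stands beside this split, and its part in it was not tested.

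The promoters of 2 genes that rose and 2 that fell are shown because genes called higher and lower held these letters in different shares, given next. The motifs and the promoters were chosen after values were seen. They are 300 bases each, from 250 before to 50 after the gene's start, taken from RefSeq (build GRCr8). Capitals mark the letters TATAAA, called a TATA box here, or GGGCGG, called a GC box, on either strand, with overlapping matches counted. A match counts anywhere in the 300 bases, whatever its distance to the start, and its function was not tested. Tnc (chr5:82476082-82476381, minus strand) and Dnase1 (chr10:12008195-12008494, minus strand) are the largest rises whose window holds the letters TATAAA on either strand. In both the marked letters lie well upstream of the start. Ccdc127 (chr1:30764424-30764723, minus strand) and Maz (chr1:191064840-191065139, minus strand) are the largest falls that hold a GC box.
Tnc: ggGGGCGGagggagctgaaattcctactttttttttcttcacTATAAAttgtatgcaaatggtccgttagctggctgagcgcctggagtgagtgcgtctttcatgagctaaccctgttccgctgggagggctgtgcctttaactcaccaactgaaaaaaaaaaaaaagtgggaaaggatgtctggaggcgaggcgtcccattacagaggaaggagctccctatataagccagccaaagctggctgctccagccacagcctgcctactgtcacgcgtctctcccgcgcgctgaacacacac
Dnase1: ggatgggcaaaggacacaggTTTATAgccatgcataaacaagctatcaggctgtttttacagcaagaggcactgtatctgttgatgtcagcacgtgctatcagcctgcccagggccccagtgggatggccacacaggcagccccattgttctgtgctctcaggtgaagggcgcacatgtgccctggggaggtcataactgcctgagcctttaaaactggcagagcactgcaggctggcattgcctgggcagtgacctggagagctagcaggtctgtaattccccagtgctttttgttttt
Ccdc127: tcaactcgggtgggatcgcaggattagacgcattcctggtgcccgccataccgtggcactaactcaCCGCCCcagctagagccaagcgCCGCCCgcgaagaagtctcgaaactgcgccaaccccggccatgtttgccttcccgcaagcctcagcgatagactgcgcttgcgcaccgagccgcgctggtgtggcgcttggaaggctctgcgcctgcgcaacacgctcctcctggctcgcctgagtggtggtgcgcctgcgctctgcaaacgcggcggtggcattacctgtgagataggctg
Maz: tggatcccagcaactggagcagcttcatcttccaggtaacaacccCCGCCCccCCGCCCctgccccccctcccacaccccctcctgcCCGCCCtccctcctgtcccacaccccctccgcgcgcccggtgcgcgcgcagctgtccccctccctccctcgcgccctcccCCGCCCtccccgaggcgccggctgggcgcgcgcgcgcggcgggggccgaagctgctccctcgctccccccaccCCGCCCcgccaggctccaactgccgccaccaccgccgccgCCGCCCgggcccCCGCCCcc

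Over all 27457 promoters of the table, 14.3% hold a TATA box and 34.9% a GC box, and over the 7224 tested genes with a promoter 7.34% and 64.2%. Genes higher at 3 months held a TATA box in 14.1% of 419 promoters, and genes lower in 5.62% of 569. A GC box stood in 54.2% of the promoters of genes that were higher and in 69.4% of those lower. Among genes dimmer than the median gene a TATA box stood in 15.1% of promoters of genes higher, 5.26% of those lower and 7.49% of those not called. Among brighter genes the shares were 12.5%, 5.90% and 6.60%. These shares are a description of letters in a fixed window and were not tested.

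Among the largest rises were Tnc, Akr1d1, Crp, Ephx2 and Rnase1. Tnc (probe set U09361_s_at), which encodes the matrix glycoprotein tenascin C, read 640.4, 561, 597 and 725 in the samples at 3 months and 62.0, 249 and 402 (lowest, median, highest) in the 12 earlier ones. All 4 late samples stood above all earlier ones, a log2 difference of 1.59 ± 0.43 (SE, n = 4 and 12, limma adjusted p = 0.023). The call was lost by a small margin when any one of the 4 late samples was left out (limma adjusted p 0.0506 to 0.0642). Naive samples ran from 218 to 619 and earlier sham samples from 264 to 579.8, and the lowest earlier injured samples lay below both. The single late sham sample read 713, within the range of the late injured ones. Akr1d1, a steroid reductase known from liver, read 610.5, 901, 554 and 950.5 at 3 months against 156, 318 and 419 earlier. Its groups did not overlap, and the difference was 1.26 ± 0.20 (limma adjusted p = 0.00156).

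Crp (probe set U83119_f_at), annotated to the acute phase C-reactive protein gene, read 2362, 3285, 4301 and 3659 at 3 months and 1005, 1441 and 2244 earlier. Whether this probe set also reads related transcripts was not tested. This was a rise of 1.11 ± 0.16 (limma adjusted p = 9.9e-04) without overlap. The naive samples lay at 2311 to 4546, the earlier sham samples at 1224 to 1661 and the single late sham sample at 1608. A second Crp probe set rose by 0.82 and the other differed by 0.10 (adjusted p = 0.824). Ephx2, the soluble epoxide hydrolase, read 1222, 1377, 811 and 1086 at 3 months against 156, 547 and 792 earlier. It rose by 1.23 ± 0.29 (limma adjusted p = 0.0133) without overlap. For Ephx2 the naive samples read 520 to 798 and the earlier sham samples 692 to 1168. Rnase1, a secreted ribonuclease, read 298, 595, 577 and 629 at 3 months and 129, 217 and 281 earlier, a rise of 1.12 ± 0.19, also without overlap.

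The rises of Cd79b, Batf and Trpv1 began from dimmer signals. Cd79b, a chain of the B cell receptor, read 154, 194, 201 and 235 at 3 months and 21.1, 30.2 and 151 earlier. On type A the 90th percentile of the negative control probe sets was 48.0 (median over arrays), above the earlier median of Cd79b. It rose by 1.55 ± 0.33 (limma adjusted p = 0.00761), and the late sham sample read 233. Batf, a transcription factor of lymphocytes, read 309.5, 338, 463 and 359 against 69.5, 140.1 and 258, a rise of 1.25 ± 0.24. Its naive samples read 131 to 218 and earlier sham samples 129 to 315. Trpv1, the capsaicin receptor, read 155, 171, 141 and 264 against 17.2, 59.5 and 124, a rise of 1.23 ± 0.20. In these 3 genes all late samples lay above all earlier ones.

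The remaining rises named by the rule were Slc17a3 (1.502), Cldn7 (1.38), Dnase1 (1.17), Cnga3 (1.14), Lancl1 (1.12), Scn4a (1.10) and Rassf7 (1.08). Of the 15 rises, 10 had no overlap between the groups, and Slc17a3, Cldn7, Dnase1, Cnga3 and Scn4a had some. Beside this, 178 of the 529 genes called higher and 4.36% of all genes tested, in either direction, had no overlap. The 15 were picked for large called changes, which favours a lack of overlap. Leaving out single samples ended the calls of Dnase1 (limma adjusted p 0.0508 to 0.123, 8 samples), Cnga3 (0.0503 to 0.0957, 5 samples), Scn4a (0.0523 and 0.0655, late samples 1 and 2) and Rassf7 (0.0562 to 0.0622, late samples 2, 3 and 4). Lost calls of Dnase1 came without late sample 1, 2 or 4, 14 d sample 3 or 4, or 7 d sample 1, 2 or 3, and those of Cnga3 without late sample 1, 2 or 3 or 7 d sample 1 or 3.

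Among the largest falls were the bright genes Prkaca and Atn1. Prkaca, the catalytic subunit of protein kinase A, read 1938, 1527, 1688 and 989 at 3 months and 2690.3, 4083 and 5339.5 earlier. All late samples lay below all earlier ones (-1.39 ± 0.18, limma adjusted p = 4.7e-04), and a second Prkaca probe set differed by -0.53 (adjusted p = 0.0725). Naive samples read 1904 to 2501 and earlier sham samples 2998 to 4875. Atn1, a transcriptional co-repressor, read 638, 817, 974 and 1013 against 1395, 2513 and 2956. Its log2 difference was -1.39 ± 0.18 with no overlap, and its other probe set differed by -1.70 (adjusted p = 0.00213). For Atn1 the naive samples read 1105 to 2572 and the earlier sham samples 703 to 1902.

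Maz, a zinc finger factor that binds GC-rich promoters, read 114, 332, 304 and 152 at 3 months and 442, 689.7 and 955 earlier (-1.60 ± 0.23, limma adjusted p = 9.5e-04). The single sham sample at 3 months read 176 and the earlier sham samples 211 to 881. Kcnk3, an acid-sensitive leak potassium channel, read 97.2, 46.8, 93.5 and 63.5 against 119, 256 and 463. Its naive samples read 81.4 to 290 and earlier sham samples 220 to 406. Efemp1, a fibulin of the extracellular matrix, read 76.8, 35.4, 23.6 and 34.9 against 107, 168 and 320.1. Late and earlier samples did not overlap in these 3 genes, and the late mean of Efemp1 was below the negative control level.

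In other falls the late samples differed among themselves or the gene's probe sets differed. Nell2, a secreted neuronal glycoprotein, gave the largest fall (-2.02 ± 0.40, limma adjusted p = 0.00561), with late samples at 1618, 322, 1204 and 246 against 1433, 2317 and 6011 and some overlap. Its other probe set differed by 0.28 (adjusted p = 0.106). For Nell2 the naive samples read 4049 to 6332, the earlier sham samples 1387 to 2283 and the late sham sample 821. Scarb1, the HDL receptor, read 655, 259.8, 227 and 729 against 1079.9, 1443 and 1727 (-1.67 ± 0.23), whereas its other probe sets differed by 0.10 and -0.25 and did not pass. Gclm, the modifier subunit of the enzyme that starts glutathione synthesis, read 147, 90.9, 84.0 and 86.6 against 172, 304 and 461 (-1.32 ± 0.23). The late sham sample read 85.2. The second Gclm probe set differed by 0.04 (adjusted p = 0.904). Mx2, an interferon-induced GTPase, read 259.9, 254, 45.8 and 45.6 against 187, 371 and 747 (-1.45 ± 0.39), with 1.01 (adjusted p = 0.0883) on its other probe set. Without the third or the fourth late sample Mx2 missed the threshold (limma adjusted p = 0.0834 and 0.0869).

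The other falls named by the rule were Ccdc127 (-1.77), Nfrkb (-1.495), Pdk4 (-1.43), Prkab1 (-1.41), Rnf112 (-1.34) and Nmrk1 (-1.34), and Efemp1 and Kcnk3 differed by -1.53 and -1.40. Of the 15 falls, picked in the same way as the rises, 8 had no overlap, beside 172 of the 690 genes called lower. Over the whole array, 149 genes had 2 or more probe sets called, and in 37 of them (24.8%) probe sets of a gene were called in opposite directions. A gene's value here is that of 1 probe set. The late sham sample lay within the range of the 4 late injured samples in 8 of the 15 rises and 6 of the 15 falls, below it in 6 rises, and above it in 1 rise and 9 falls.

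**Figure D3:**
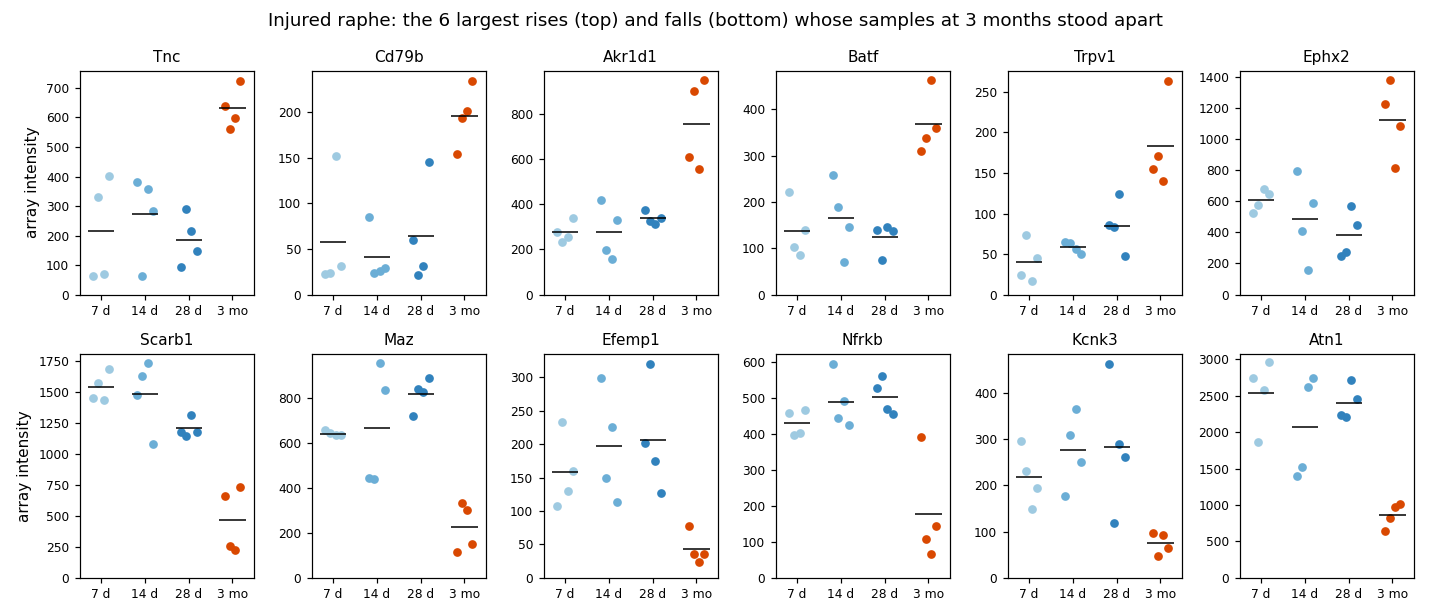
Array intensity (vertical axis, linear, starting at 0) of 12 genes in each of the 16 injured raphe samples, by time (horizontal axis); points are samples and black lines group means. The top row holds the 6 largest rises and the bottom row the 6 largest falls in which the samples at 3 months do not overlap the 12 earlier ones, such as Tnc (561 to 725 against 62.0 to 402) and Scarb1 (227 to 729 against 1079.9 to 1727).

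Emcn and Gstm5 were described with earlier results known. Emcn, which encodes the endothelial sialomucin endomucin, read 651, 690.2, 727 and 578 at 3 months and 414, 538 and 624 earlier, and the groups overlapped. Its difference of 0.33 ± 0.11 missed the threshold (limma adjusted p = 0.0632). Gstm5, a glutathione S-transferase, read 10559, 12939.7, 13282 and 10726 at 3 months and 5899.8, 7625 and 10367 earlier on its brightest probe set. That probe set rose by 0.59 ± 0.12 (limma adjusted p = 0.00697) with no overlap. A second Gstm5 probe set differed by -0.52 (adjusted p = 0.0471) and another by 0.05 (adjusted p = 0.817). The second one lost its call without any of 13 single samples (limma adjusted p 0.0519 to 0.158), late samples 1, 2 and 4 among them.

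The genes whose levels over the 16 samples were most like those of Emcn were Gas2l1 (Pearson r = 0.88), Rhox5 (0.85) and Stx8 (0.81). Those most like Gstm5 were C6 (0.94), Mast3 (0.93) and Ccm2 (0.89). These correlations describe 16 samples that share their arrays and the split by time, and no test was made.

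The gene lists that follow are read beside the shares of all genes tested, 6.07% higher and 7.92% lower. With the array floor as a covariate 0 of the 620 list genes passed (limma), and 82 had an unadjusted p below 0.05. With the spike controls as a covariate 31 passed, and the count under that covariate is given below for lists with 5 or more calls. Where leaving out single samples moved a count of 2 or more by over 1.5 times, the samples are named.

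Of 21 vascular endothelium genes 0 were higher and 1 lower (4.76%, against 7.92% of all genes). The lower one was Tek, the angiopoietin receptor (529.8 to 769 against 672 to 988, -0.39 ± 0.12). The summed intensity of the 21 endothelial genes was 23324 to 25722 at 3 months and 23060.5 to 24808 earlier. Of 12 pericyte and smooth muscle genes 3 rose (25%, against 6.07% of all genes), namely Cspg4 (0.50), Kcnj8 (0.50) and Anpep (0.43), and 0 fell. Only 1 was left without late sample 1, 2 or 4, 28 d sample 3 or 4, 14 d sample 4, or 7 d sample 1, 2 or 3.

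Among genes of the glucocorticoid response, calls were in the lower direction. Of 18 measured members, 0 were higher and 5 lower (27.8%, against 7.92% of all genes), with a median difference of -0.39 beside 0.01 over all genes tested. Without the second late sample 3 were lower, and with the spike covariate 5. The list's summed intensity was 28650.1 to 37236 at 3 months and 34604 to 44541 earlier. Cdkn1a, the cell cycle inhibitor p21, read 173, 151, 166 and 183 at 3 months against 168, 393 and 559 earlier. Its difference was -1.05 ± 0.18 (limma adjusted p = 0.00252), with -0.72 (adjusted p = 0.0193) on a second probe set. Tsc22d3, known as GILZ, read 2198, 1964, 2207 and 2175 against 2260.3, 2735 and 3364, with no overlap (-0.35 ± 0.09).

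Errfi1, a feedback inhibitor of the EGF receptor, differed by -0.55 ± 0.12, and Pdk4, which holds back pyruvate oxidation, by -1.43 ± 0.33. Pdk4 read 136, 17.9, 30.3 and 96.6 at 3 months against 69.1, 261 and 519 earlier, while naive samples read 12.4 to 102 and earlier sham samples 24.4 to 71.4. Sgk1, the serum and glucocorticoid kinase, was the other called member (-0.87 ± 0.26) and was named after its value was seen. It read 573, 817, 712 and 1426 against 767, 1667 and 3181, with 474 to 949 in naive and 532 to 805 in earlier sham samples. For Pdk4 and Sgk1 the median of the earlier injured samples lay above the highest naive and earlier sham sample. Of the 5 promoters, 0 held AGAACA, letters to which the glucocorticoid receptor can bind, which stood in 866 of 7224 promoters of tested genes and 20.1% of all in the table. In injured cortex the same list had a median late difference of -0.44, and in sham raphe 0.13.

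Of 17 myelin and oligodendrocyte genes, 5 were lower (29.4%, against 7.92% of all genes) and 1 higher, with a median difference of -0.25. Without the third late sample 3 were lower, and with the spike covariate 1 was lower and 0 higher. Mog, a glycoprotein of the outer myelin face, read 3396, 2816, 2939.8 and 3505 at 3 months against 3680.1, 4085 and 4991 earlier. Its difference was -0.39 ± 0.09 (limma adjusted p = 0.00894), with 0.04 on its other probe set (adjusted p = 0.847). Mal, a raft protein of myelin, read 4864, 4793, 4599 and 5102 against 5309, 6529.5 and 8154 (-0.42 ± 0.10). Ugt8, the galactolipid synthesis enzyme, read 3958, 3946, 3685 and 4412 against 4420.5, 5438 and 7295 (-0.49 ± 0.09).

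In Mog, Mal and Ugt8 all late samples lay below all earlier ones. Sox10 and Myrf, transcription factors of the lineage named after their values were seen, differed by -0.66 and -0.27. Mbp, myelin basic protein, went the other way at 70287, 90597, 112201 and 85078 against 52397, 61301 and 71141 (0.51 ± 0.11). The other Mbp probe sets differed by 0.48 and -0.21 without passing. The summed intensity of the list was 173913 to 224749 at 3 months and 151849 to 190166 earlier, a sum in which Mbp is the brightest of the genes named here. In injured cortex the myelin median was -0.41 and in sham raphe -0.0043.

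Genes of neuronal identity and transmission came next. Of 15 brainstem neuron genes 0 were higher and 2 lower (13.3%, against 7.92% of all genes), and 1 of the 15 had a positive difference (median -0.28). Without late sample 1, 2 or 3, 28 d sample 4, or 7 d sample 1, 2 or 3 only 1 was lower, and without late sample 4 there were 4. Slc17a6, the vesicular glutamate transporter of the brainstem, read 5459.7, 5454, 5786 and 8232 at 3 months against 7481, 8079.9 and 8967 (-0.40 ± 0.10, limma adjusted p = 0.02). The fourth late sample lay among the earlier ones. Phox2a, a homeobox factor of noradrenergic neurons, read 29.6, 42.8, 28.1 and 30.3 against 24.9, 127 and 159. Its difference was -1.06, and its late mean was below the negative control level.

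Of 24 synaptic vesicle genes 0 were higher and 6 lower (25%, against 7.92% of all genes; median -0.10). Without the second or the third late sample 3 were lower, and with the spike covariate 0. Slc32a1, which loads GABA and glycine into vesicles, read 5726, 5102, 4920.0 and 4999 against 5509, 8051 and 8693 (-0.52 ± 0.12), and the first late sample overlapped the earlier ones. Rph3a, rabphilin, read 125, 29.6, 40.2 and 30.95 against 58.5, 172 and 263 (-1.27 ± 0.26), and Syt5, a synaptotagmin, differed by -0.79 ± 0.19. Among neuropeptide precursors 2 of 22 were lower (9.09%, close to the 7.92% of all genes) and 0 higher. The count was 0 without late sample 4, and 1 without late sample 1 or 3, 28 d sample 2, 3 or 4, 14 d sample 3 or 4, or 7 d sample 1, 3 or 4. Galanin (Gal) read 172, 385, 307 and 92.7 against 234, 559.5 and 756 (-1.08 ± 0.27), and thyrotropin-releasing hormone (Trh), a peptide of caudal raphe neurons, differed by -0.63.

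Of 17 serotonin and monoamine genes 3 were lower (17.6%, against 7.92% of all genes) and 1 higher (median -0.08). Htr2c, a serotonin receptor that the choroid plexus also expresses strongly, read 2606, 3136, 2685 and 2138 at 3 months against 3124, 5022 and 8727 (-0.93 ± 0.16, limma adjusted p = 0.00277). Naive samples read 1128 to 2341 and earlier sham samples 1197 to 4966. The choroid plexus sums given above reached higher values at the earlier times, and their part in the Htr2c difference was not tested. Gch1, which starts synthesis of the cofactor for serotonin and dopamine production, differed by -0.42, and Th, tyrosine hydroxylase, by -0.37. Slc6a3, the dopamine transporter, rose by 0.58. The serotonin transporter gene Slc6a4 differed by -0.08 ± 0.14 (limma adjusted p = 0.742) and Ddc, the decarboxylase shared by serotonin and catecholamines, by -0.23 ± 0.16 (adjusted p = 0.325), both named after their values were seen.

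Of 32 genes of axon growth 3 were higher (9.38%) and 4 lower (12.5%), beside 6.07% and 7.92% of all genes. Only 1 was lower without late sample 1, 2 or 4, 28 d sample 3 or 7 d sample 3, and 2 without 14 d sample 4 or 7 d sample 1. With the spike covariate 2 were higher and 1 lower. Ngfr, the low-affinity neurotrophin receptor, read 3062, 4014, 3459 and 3142 at 3 months against 993, 1812 and 2230.2. It rose by 0.95 ± 0.17 (limma adjusted p = 0.00291) without overlap, and its second probe set differed by 0.24 (adjusted p = 0.166). Atf3, a transcription factor induced by axon injury, read 273, 291, 249.5 and 399 against 121, 191 and 237 (0.64 ± 0.14), without overlap. Naive samples read 131 to 212 and earlier sham samples 204 to 283 for Atf3. Cntn2, an axonal adhesion molecule, rose by 0.48, and its relative Cntn1 differed by -1.08. The other 3 lower members, named after their values were seen, were Gap43 of growth cones (-0.31), the neurofilament gene Nefm (-0.30) and Rtn4, which encodes Nogo (-0.50).

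In voltage-gated channels 2 of 29 genes were higher (6.9%) and 3 lower (10.3%), shares close to those of all genes (6.07% and 7.92%). Without late sample 1 the counts were 1 and 1, without late sample 2 only 1 was lower, and without late samples 3 and 4 in turn 4 and 1 were higher. With the spike covariate 0 were higher and 1 lower. Kcnq3, a subunit of the M-current, read 389 to 628 at 3 months and 189 to 389 earlier, and rose by 0.65. Cacnb1, a calcium channel subunit, rose by 0.70. Scn9a, a sodium channel gene, read 66.4 to 97.7 and 114 to 215, a difference of -0.66, and the potassium channel genes Kcnd3 and Kcna1 (the latter named after its value was seen) differed by -0.98 and -0.85. Of 28 glutamate, GABA and glycine receptor genes 0 passed the test, with differences from -0.51 to 0.86.

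Of 51 cytosolic ribosomal protein genes 8 were higher (15.7%, against 6.07% of all genes) and 1 lower, 39 had a positive difference and the median was 0.21. Without the second or the third late sample 4 were higher, and with the spike covariate 1. Rpl36 read 8815, 8264, 7251 and 9325 at 3 months against 4660.2, 5203 and 6087, with no overlap (0.66 ± 0.09, limma adjusted p = 6.7e-04). Naive samples read 7677 to 8882 and the single late sham sample 5495. Rps3 read 16589.5, 19473, 18054 and 16402 against 10615, 12415 and 15743, and all 3 of its probe sets rose, by 0.45 to 0.62. Rps15 rose by 0.45, and Rps21 was the 1 member that fell (-1.18).

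Of 51 respiratory chain genes 8 were higher (15.7%, against 6.07% of all genes) and 4 lower (7.84%, the share of all genes being 7.92%), with a median of 0.17. Without late samples 2, 3 and 4 in turn 3, 4 and 5 were higher, and without any one of the 16 samples 1 to 3 were lower. With the spike covariate 2 were higher and 0 lower. Cox5b, a subunit of cytochrome oxidase, read 14898, 14559.5, 15673 and 14462 at 3 months against 8019, 9973 and 11902, a rise of 0.62 ± 0.11 without overlap, with -0.14 (adjusted p = 0.376) on its second probe set. Ndufv2, a subunit of complex I, read 11097, 12274, 8921 and 11872 against 4115, 6602 and 8166 (0.82 ± 0.15). Cox7c rose by 0.51, and Atp5pf, a subunit of ATP synthase, differed by -0.53. The summed intensity of the ribosomal list was 619544 to 714996 at 3 months and 517355 to 660642 earlier, and that of the respiratory list 451563 to 526760.0 and 390340.0 to 451342. In sham raphe the medians of the ribosomal and respiratory lists were -0.06 and -0.26, and in injured cortex 0.02 and -0.01.

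Of 23 heat shock and chaperone genes 5 were lower (21.7%, against 7.92% of all genes) and 1 higher. Without late samples 2, 3 and 4 in turn 3, 2 and 3 were lower, and with the spike covariate 2. Pdia4, a disulfide isomerase of the endoplasmic reticulum, read 532, 331, 369 and 414 at 3 months against 744, 1008 and 1172, a difference of -1.20 ± 0.12 (limma adjusted p = 6.8e-05) with no overlap. Naive samples read 257 to 782, and the second Pdia4 probe set differed by 0.17 (adjusted p = 0.281). Hspa9, mitochondrial Hsp70, read 757, 522, 325 and 723 against 787, 1512 and 1866 without overlap, and both of its probe sets fell (-1.27 and -0.92). Calr and Canx, the lectin chaperones, differed by -0.47 and -0.31. Hspa13 also fell (-0.61) and Hsph1 rose by 0.49, both named after their values were seen.

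Of 35 extracellular matrix and meningeal genes 3 were higher (8.57%, beside 6.07% of all genes) and 1 lower, beside a list median of -0.03. Beside Tnc, Col3a1, a fibrillar collagen, read 771, 1101, 883 and 1168 at 3 months against 439, 534 and 693 (0.83 ± 0.12, limma adjusted p = 0.00111). Its other probe sets differed by -0.21 and -0.16 and did not pass. Igfbp4, an IGF-binding protein, read 1441, 1776, 2742 and 1867 against 781, 1054 and 1266 (0.83 ± 0.14). Col3a1 and Igfbp4 showed no overlap, and Timp3, an inhibitor of matrix proteases, differed by -0.51.

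Of 30 glutathione and xenobiotic genes 3 were higher (10%) and 2 lower (6.67%), beside 6.07% and 7.92% of all genes. Without the second 14 d sample 5 were higher, and with the spike covariate 1 was higher and 2 lower. Beside Gstm5, Ephx2 and Gclm these were Gsta4 and Txnrd1. Gsta4, a glutathione transferase named after its value was seen, rose by 0.45 ± 0.11, while another of its probe sets differed by -0.81 (adjusted p = 0.00561). Txnrd1, a thioredoxin reductase, read 1408, 2204, 2316 and 2023 against 2454, 3258 and 3899 (-0.69 ± 0.14), without overlap. Of 26 genes of cholesterol and fatty acid synthesis 1 was higher and 1 lower (3.85% each, beside 6.07% and 7.92% of all genes). Insig1, a brake on sterol synthesis, read 2249, 2034, 1880.0 and 3238 against 3524, 4208 and 6198 without overlap (-0.88 ± 0.13), with -0.46, 0.20 and 0.11 on probe sets that did not pass. Srebf1, a lipogenic transcription factor, rose by 0.47.

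The microglia, astrocyte, interferon, complement and blood lists had 0 or 1 call each, beside 6.07% higher and 7.92% lower among all genes. Of 20 microglia and macrophage genes 0 passed (differences from -0.37 to 0.36, 12 positive). Of 17 astrocyte genes 1 was higher (5.88%), the gap junction gene Gja1 (0.42 ± 0.12). Of 18 interferon and antigen presentation genes 1 was lower (5.56%), Mx2. Of 13 complement and acute phase genes 1 was higher (7.69%), Hp, haptoglobin (0.37 ± 0.12). Of 6 blood genes 1 was higher (16.7%), Hba-a1, an alpha globin, at 46498 to 61838 against 29216 to 52494, and naive samples read 78312 to 95512. The summed intensity of the 6 blood genes was 71209 to 95089 at 3 months and 47041 to 88699 earlier, and the part of blood in the other results was not tested.

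Of 16 genes of oligodendrocyte progenitors and the cell cycle 3 were higher (18.8%) and 1 lower (6.25%), beside 6.07% and 7.92% of all genes. Top2a (0.38), Mcm2 (0.30) and Cspg4, which the pericyte list also holds, were higher, and Cspg5 was lower (-0.66). Without the fourth late sample 1 was higher. Immediate early genes had 2 of 17 higher (11.8%, against 6.07% of all genes) and 0 lower. The 2 were Fosl2 (0.54) and Atf3, which the axon growth list also holds. The clock gene Cry2 was higher by 0.28, the 1 call among 13 clock genes (7.69%). Proteasome subunits had 3 of 35 higher and 2 lower (8.57% and 5.71%, beside 6.07% and 7.92% of all genes), among them Psmb4 (0.59) and Psmd10 (-0.48). Only 1 was higher without late sample 1 or 3, and 1 lower without late sample 1, 2 or 4, any 28 d sample, 14 d sample 3 or 4, or 7 d sample 2, 3 or 4. With the spike covariate 1 was higher and 2 lower. Of 15 forebrain genes, 8 cerebellum genes and 1 sex-linked gene 0 passed.

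**Figure D4:**
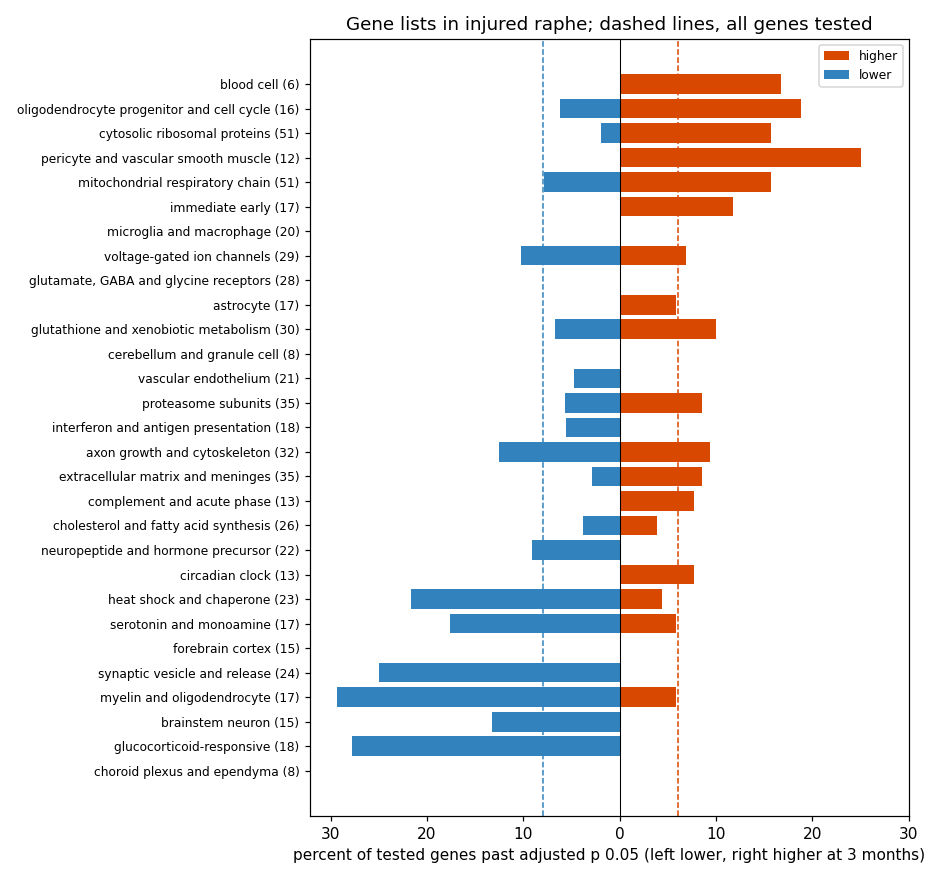
Share of the measured genes of each list (number tested in brackets) past an adjusted p of 0.05, lower at 3 months to the left and higher to the right (horizontal axis, percent), ordered by the median difference of the list, leaving out the list of 1 sex-linked gene. Dashed lines mark all genes tested, 7.92% lower and 6.07% higher. Myelin (29.4%), glucocorticoid-responsive (27.8%) and synaptic vesicle genes (25%) have the longest bars to the left among lists of 15 or more genes.

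The late change was next set against that of sham raphe, to see which part also occurred after laminectomy alone. With 1 sham sample at 3 months against 6 earlier ones, limma called 2 probe sets higher and 15 lower in sham raphe, 0.0944% of 18014, with 1293 at an unadjusted p below 0.05. Among the 2634 probe sets called in injured raphe, the sham late change had the same sign in 50.3%, and over all tested probe sets in 49.8%. The difference between the injured and the sham late change passed for 29 probe sets (0.161%), 21 of them positive and 8 negative, with 2299 at an unadjusted p below 0.05.

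The genes named with a negative difference had a negative late change in injured raphe and a positive one in sham raphe. Ube2q2, a ubiquitin-conjugating enzyme, changed by -1.15 in injured and 0.83 in sham raphe, a difference of -1.98 ± 0.35 (limma adjusted p = 0.0268). Dnm1l, the GTPase of mitochondrial fission, changed by -1.14 and 0.92 (difference -2.05, adjusted p = 0.0476), Rc3h2 by -0.72 and 1.01, and Dnajc12, a co-chaperone, by -0.76 and 0.25. In the genes named with a positive difference the sham sample moved more. Cyp2j3, a cytochrome P450, changed by 0.25 in injured and -2.001 in sham raphe, and for Nup93, Rnaseh1 and Smarcad1 the injured change was 0.09, 0.02 and 0.04 against -1.53, -1.92 and -2.09. Ube2c changed by 0.48 and -1.23.

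Naive raphe and the earlier sham samples, which the late contrast did not use, were placed between the 2 injured groups. Of the 1412 probe sets lower at 3 months, the naive mean lay nearer the late than the earlier injured mean in 61.3%, and the earlier sham mean in 45.9%. Of the 1222 higher ones the shares were 41.7% and 32.9%, and over all tested probe sets 51.6% and 46.0%.

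In injured cortex of the same times much of the late change had the same direction. Of the 2634 probe sets called in raphe, 75.6% had the same sign in cortex, against 62.0% of all 17104 tested. The share was 82.7% among those higher in raphe and 69.5% among those lower. The medians in cortex were 0.28 for probe sets higher in raphe (0.55 in raphe) and -0.14 for those lower (-0.57 in raphe). On type A the 5th percentile of cortex arrays was 12.02 to 17.4 at 3 months and 6.43 to 31.4 earlier, with medians of 16.02 and 9.21. Only the second cortex sample at 7 d (31.4) stood above, and the other 11 earlier samples read 6.43 to 11.3, all below the late ones. On type B the same sample read 35.8 and the other 11 read 12.7 to 17.2, all below the late 17.7 to 20.4, and on type C 10 of the 12 earlier samples lay below the late ones. Without that sample, a setting added after seeing the data, 77.7% of the called and 63.3% of all probe sets had the same sign. The part of the array floor in the shared direction was not tested.

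The late change differed between raphe and cortex for 154 of 18417 probe sets (0.836%), 50 with a positive and 104 with a negative difference. Without the first cortex sample at 3 months 39 passed, and without any 1 of the 16 raphe samples 63 or more. With the array floor as a covariate, a setting added after seeing the data, 137 passed. Scarb1 changed by -1.67 in raphe and -0.04 in cortex (difference -1.64 ± 0.29, limma adjusted p = 0.00882). Insig1 changed by -0.88 and 0.19, Tulp4 by -1.28 and 0.67, and Cdh11, a cadherin, by -1.16 and 0.19. Rpl23a changed by -0.13 in raphe and 1.13 in cortex. Of the 30 largest changes, Nell2, Maz and Nfrkb also differed (-2.04, -1.66 and -1.26).

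Positive differences were given by Lancl1, a glutathione-binding protein, at 1.12 in raphe and -0.36 in cortex (difference 1.48 ± 0.28, adjusted p = 0.0135, limma). Lancl1 read 319.6, 547, 383 and 582 in raphe at 3 months against 91.5, 208 and 248 earlier. Phgdh, the first enzyme of serine synthesis, changed by 0.36 and -0.29, and Pigq by 0.44 and -0.34. For Zfp276 and Mfhas1 the cortex moved more (-1.82 and -1.65) than the raphe (-0.26 and 0.21).

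**Figure D5:**
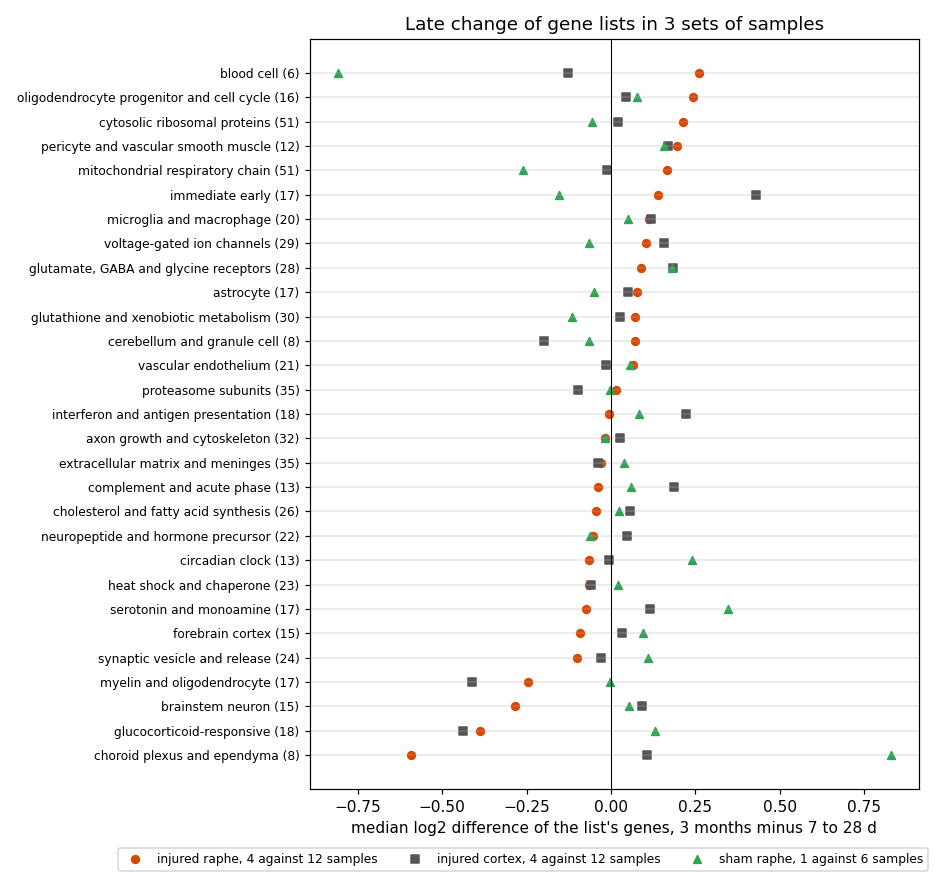
Median late difference of each gene list (horizontal axis, log2, 3 months minus 7 to 28 d) in injured raphe (circles), injured cortex (squares) and sham raphe (triangles, 1 sample at 3 months); numbers tested in brackets. Glucocorticoid-responsive genes lie at -0.39 and -0.44 in injured raphe and cortex and at 0.13 in sham raphe, and brainstem neuron genes at -0.28, 0.09 and 0.05.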

How the data were processed

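The deposited values are intensity values, a linear signal for each probe set, with every array already scaled. The 2% trimmed mean lay between 799.8 and 799.98 on each of the 48 arrays of the 16 samples. The upstream software and its settings are not given in the sources used here. Of 26202 probe sets without controls, 18178 had a single gene symbol in the platform annotation, 391 several and 7633 none, and 59 control probe sets per type were kept apart. The number of arrays limits the precision.

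Values were taken as log2(intensity + 32), which draws differences of dim genes towards 0. The filter kept a probe set that lay above the 40th percentile of the array in 4 or more samples of the fit. Group means were fitted with limma 3.58.1 (R 4.3.3, statmod 1.5.0), type by type and two-sided, with Benjamini-Hochberg adjustment over the types together and a threshold of 0.05. The late change is the 3-month mean minus the mean of the 7 d, 14 d and 28 d group means. The sham comparison used 27 samples, with the lone late sham sample assumed to vary like the other groups, and the comparison with cortex 32. Array measures were compared with exact permutation tests (scipy 1.17.1). On simulated data for the late change (17057 probe sets), 80.4% of those changed by 1 and 25.5% of those changed by 0.5 on the log2 scale were called, and 0.0237% of the unchanged ones. The simulated noise was independent between probe sets and held no shift of the array floor, so these rates do not carry over to the real arrays.

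A gene is represented by its tested probe set of highest mean over the 16 samples. Named genes are, among those past the threshold with all 4 late samples on the same side of the mean of the earlier ones, the 15 largest rises and the 15 largest falls; Emcn and Gstm5; up to 4 members of each of 30 gene lists with the smallest p; the 5 genes of smallest p in each direction for the sham and cortex comparisons; and the 3 genes most correlated with Emcn or Gstm5. Other genes are said to be named after their values were seen. The samples compared, the gene lists and the comparisons were chosen with earlier results of these data known. Alternatives were other constants, filters, normalization, weights, covariates, sample sets and a replicate block. The array floor and the spike controls as covariates were chosen after seeing the data. Promoter sequences are from RefSeq (build GRCr8).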

Additional observations from a re-analysis of the deposited data

Results flagged for a closer look

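In 10 of 136 groups of 4 samples examined for the named genes, 1 sample stood far from the others by Dixon's ratio. The ratio is the gap to the nearest sample over the range of the group, both on log2(intensity + 32). Chance gives about 1 such group in 20. Cd79b read 151 in replicate 3 at 7 d and 22.3 to 30.9 in the other samples of that time (ratio 0.880). Cd79b read 84.7 in replicate 1 at 14 d and 23.4 to 29.5 in the other samples of that time (ratio 0.860). Cldn7 read 226 in replicate 1 at 28 d and 34.0 to 45.9 in the other samples of that time (ratio 0.878). Batf read 75.4 in replicate 2 at 28 d and 136 to 147 in the other samples of that time (ratio 0.886). Dnase1 read 68.3 in replicate 3 at 28 d and 228 to 256 in the other samples of that time (ratio 0.903). Rnase1 read 298 in replicate 1 at 3 months and 577 to 629 in the other samples of that time (ratio 0.881). Ccdc127 read 176 in replicate 1 at 14 d and 342 to 385 in the other samples of that time (ratio 0.845). Ccdc127 read 31.7 in replicate 1 at 28 d and 304 to 414 in the other samples of that time (ratio 0.855). Pdk4 read 69.1 in replicate 4 at 14 d and 255 to 306 in the other samples of that time (ratio 0.865). Gclm read 147 in replicate 1 at 3 months and 84.0 to 90.9 in the other samples of that time (ratio 0.867).

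The late change differed between injured and sham raphe (limma interaction, log2 scale) for Cyp2j3 (2.25), Nup93 (1.62), Rnaseh1 (1.94), Smarcad1 (2.14), Ube2c (1.70), Ube2q2 (-1.98), Rc3h2 (-1.74), Dnajc12 (-1.02) and Dnm1l (-2.05). All of these rest on 1 sham sample at 3 months. Between injured raphe and injured cortex it differed for Zfp276 (1.56), Mfhas1 (1.87), Lancl1 (1.48), Phgdh (0.66), Pigq (0.79), Scarb1 (-1.64), Rpl23a (-1.25), Tulp4 (-1.94), Insig1 (-1.07), Cdh11 (-1.36), Nell2 (-2.04), Maz (-1.66) and Nfrkb (-1.26).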

How the results depend on the processing

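The late change of 2634 probe sets ranged from 1692 (without the second late sample) to 2738 when each sample was left out, the contrast with 28 d from 585 to 1450, the change among earlier times from 0 to 1, the sham late change from 16 to 24, injured minus sham from 12 (without the second late injured sample) to 89 (without the second sham sample at 14 d), and raphe minus cortex from 39 (without the first cortex sample at 3 months) to 224. Leaving out the lone late sham sample gives no value. With all raphe groups in the fit the late change gave 550 and the contrast with 28 d 103. The late change gave 1510 without the 7 d samples. For the late change and the contrast with 28 d, the array floor as a covariate, chosen after seeing the data, gave 2 and 1. It turned the sign of Nell2 (0.085) and of the Gstm5 probe set U86635_at (0.28). The spike controls, also chosen later, gave 977 and 694 for the same 2 contrasts. For raphe minus cortex the array floor as a covariate gave 137, against 154 in the main fit. The sham late change gave 32 with quantile normalization, 48 without a filter, 31 with 1 added in place of 32, and 152 with the sham sample left out above. Injured minus sham gave 51 with quantile normalization, 44 with 1 added, 11 with the larger constant tried added and 163 with that sham sample. The cause of these changes was not tested. Without a filter the late change gave 3586, of which 2209 were higher and 1377 lower, against 1222 and 1412. The 8 other settings of constant, filter, normalization, weights, adjustment, grouping and control ratio gave 2006 to 2843.

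Same-numbered samples of different groups deviated from their group means with correlations of -0.07 to 0.16 (24 pairs, 3 over 0.1). For samples of other numbers they were -0.17 to 0.17 (72 pairs, 5 over 0.1). Such correlations cannot settle whether equal numbers share an animal or a batch, and the main fit did not pair by number. With the replicate block the late change gave 2371, the contrast with 28 d 1048, the change among earlier times 0, the sham late change 15, injured minus sham 15 and raphe minus cortex 168. Dim signal limits the falls of Ccdc127, Efemp1, Pdk4 and Nmrk1, whose late means were below the negative control level. It also limits the rises of Cd79b, Cldn7 and Slc17a3. Their earlier medians (30.2, 42.8 and 59.7) lay below that level (48.0 on type A, 73.3 on type C for Slc17a3), but their earlier means did not.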
